A study of Mus musculus with 24 samples.

Results

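The 78 genes described here encode proteins of the cytosolic ribosome, the particle that translates messenger RNA outside mitochondria. They were chosen by symbol: Rpl or Rps followed by a number, with at most a letter and a digit after it, the stalk genes Rplp0, Rplp1 and Rplp2, and Rpsa. Pseudogene names and the S6 kinases were left out, and a mean of at least 5 CPM over all libraries was required, CPM being a gene's counts scaled to library size. Of 89 matching symbols, 78 reached that level, 31 of the small and 47 of the large ribosomal subunit. They are part of 13204 genes tested. The rule uses symbols and the mean level alone, but it was set with earlier results of these data known. Each of the 78 passed the filter on low counts and was counted in every library, with 997 to 28107 counts per gene over the 24 libraries (median 4915.5). Nearest inside the minimum were Rpl22l1 at a mean of 7.26 CPM and Rps14 at 10.7 CPM. Nearest outside were Rps4l at 2.25 CPM and Rps3a2 at 1.22 CPM.

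RNA came from livers of individual mice, either wild type (WT) or with a hepatocyte-specific knockout of Egfr (KO), the gene of the epidermal growth factor receptor. The study gave mice 500 mg/kg of acetaminophen, a painkiller that injures hepatocytes at overdose, and livers were taken at 0, 1, 3 or 12 h. With 3 mice in each of the 8 groups there were 24 libraries, and the mice of different times were different animals. The promoter that drives the deletion, the allele, strain, sex and age of the mice, and what the 0 h mice received are not given in the labels. As the tissue was sequenced in bulk, fewer cells of a type and less RNA per cell cannot be told apart.

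Each cytosolic ribosome holds a single copy of nearly every ribosomal protein, so cells make these proteins in step. Their mRNAs are abundant and carry a terminal oligopyrimidine tract at the 5′ end (5′ TOP), a C followed by a run of pyrimidines, through which the kinase complex mTORC1 and the RNA-binding protein LARP1 set their translation. Control through 5′ TOP acts mainly on translation and mRNA stability, which total mRNA levels show only in part. In the liver, ribosome production is tied to feeding and to regrowth after injury, and a surplus of free RPL5 and RPL11 binds MDM2 and so stabilises p53.

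Promoter records of RefSeq (build GRCm38.p6, another build than the mm39 of the counts) matched 59 of the 78 genes by symbol, with 70 annotated starts. A run of C followed by at least 4 bases that are C or T began within 5 bases of the annotated start, on the transcript's strand, at 30 of the 70 starts, or 42.9% (95% Wilson interval 31.9% to 54.5%). The same search gave 18.3% of all 32851 promoters in the table and 22.7% of the 75 starts of mitochondrial ribosomal protein genes. Exactly at the start, the shares were 17.1%, 2.51% and 0%. The windows printed here run from 10 bases before the start to 20 bases from it, with the run in capitals. The first 4 hold a run and show what the search counts, and the others belong to members that were called between groups and hold none.
Rpl27a, chr7:109519185-109519214, plus strand: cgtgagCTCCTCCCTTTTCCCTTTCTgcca
Rps6, chr4:86857348-86857377, minus strand: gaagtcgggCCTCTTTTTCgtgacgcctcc
Rplp2, chr7:141447641-141447670, plus strand: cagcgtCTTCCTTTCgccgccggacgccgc
Rpl22l1, chr3:28805498-28805527, plus strand: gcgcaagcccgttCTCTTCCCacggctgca
Rpl22, chr4:152324426-152324455, plus strand: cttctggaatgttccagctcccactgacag
Rpl22, chr4:152325716-152325745, plus strand: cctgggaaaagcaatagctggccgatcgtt
Rpl37, chr15:5116603-5116632, plus strand: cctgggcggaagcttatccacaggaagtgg
Rps25, chr9:44407704-44407733, plus strand: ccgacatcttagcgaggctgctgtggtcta
Rpl7l1, chr17:46782637-46782666, minus strand: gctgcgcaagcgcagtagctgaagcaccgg
Rpsa, chr9:120127756-120127785, plus strand: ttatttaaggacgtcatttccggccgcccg
The tract in the window of Rpl27a is 20 bases long, that of Rps6 is 10 and that of Rplp2 is 9. A window without such letters says only that they are not within reach of that annotated start.

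The libraries held 3.54 to 7.58 M counts on genes, of which 39.6% to 50.4% were mitochondrial ribosomal RNA. Between 1.75 and 4.37 M counts remained on other genes, lowest at 12 h (1.75 to 2.41 M). Egfr, the check of the genotype labels, was at 203 to 633 CPM in WT livers and at 43.0 to 271 CPM in all but 1 of the KO livers. The library labelled KO 1 h replicate 1 stood at 335 CPM, within the WT range at 1 h, while no other KO liver reached a WT liver of its own time. None of the counts of called members given below for KO at 1 h changes without it. The 8 hepatocyte markers summed to 31987 to 51943 CPM in every library, while 12 lymphocyte markers summed to at most 13.3 CPM, with Trbc2 and Ighm at 0 throughout. The WT 0 h replicate 2 library had the lowest of all 24 values for 21 of the 78 ribosomal protein genes, more than any other library, and every WT response below is measured against the 3 WT 0 h livers it belongs to.

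The 78 genes together made up 0.561% to 0.724% of the counts outside mitochondrial ribosomal RNA. Their summed level was 3646, 3437 and 3757 CPM in the WT livers at 0 h and 3548, 3487 and 3682 CPM in the KO livers at 0 h. The CPM here are scaled by trimmed mean of M values (TMM), which takes most genes as unchanged. At 1 h the group means were 3373 ± 90.4 CPM (SD, n = 3) in WT and 3420 ± 72.0 CPM in KO, and at 3 h they were 3522 ± 229 and 3475 ± 203 CPM. At 12 h the WT livers read 3825, 3722 and 3994 CPM and the KO livers 3516, 3552 and 3648 CPM. Over all 24 libraries the sum ran from 3262 to 3994 CPM. The WT and KO livers did not overlap at 12 h, and they overlapped at 0, 1 and 3 h. This separation is on the TMM scale: as a share of counts outside mitochondrial ribosomal RNA, the 12 h livers overlapped, at 0.617% to 0.639% in WT and 0.579% to 0.622% in KO. The log2 ratio of 12 h to 0 h for the sum was 0.09 in WT under TMM, but −0.26 with scaling by library size alone, under which the median of all genes lay at −0.37. The small subunit genes took 33.2% to 37.5% of the sum in every library.

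**Figure D1:**
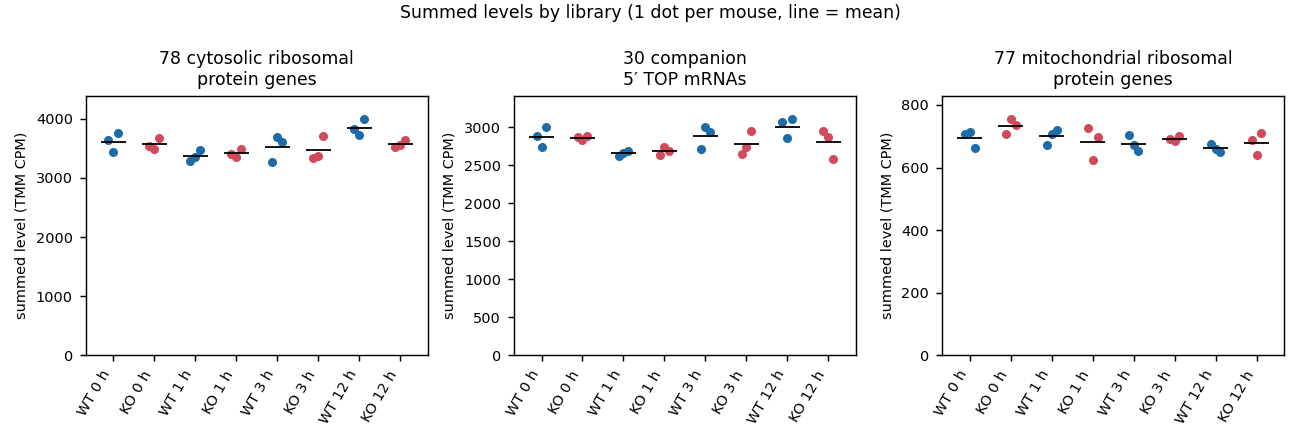
Summed level in TMM-scaled CPM (y axis) of the 78 cytosolic ribosomal protein genes, 30 other mRNAs with 5′ TOP and 77 mitochondrial ribosomal protein genes in each of the 8 groups (x axis). Dots are single mice and lines are group means; the cytosolic ribosomal protein sum lies between 3262 and 3994 CPM in all 24 livers.

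Per kilobase of coding sequence, levels in WT livers at 0 h ran from 16.8 CPM per kb for Rpl22l1 to 375 CPM per kb for Rpl41, whose protein is the shortest of the ribosome. The median was 79.2 CPM per kb, 80.9 for the small subunit and 70.1 for the large. Reads in untranslated parts count too and raise genes with short coding sequences or long UTRs. Rpl21 (337 CPM per kb), Rpl17 (281 CPM per kb) and Rps23 (228 CPM per kb) followed Rpl41. Next to Rpl22l1 at the low end were Rps14 (22.0 CPM per kb), Rpl7l1 (26.8 CPM per kb) and Rpl27 (26.9 CPM per kb). From Rpl22l1 to Rpl41 these readings spread over 22.3-fold. Ribosomal protein genes have many processed pseudogenes, and 7.23% to 8.70% of the reads mapped to several places and were counted for no gene.

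Strand handling also entered the readings, since reads were counted without regard to strand and 26.3% to 30.8% were ambiguous between genes. Rpl28, a large subunit protein, fell below the minimum with 8 counts in all 24 libraries. In the column that counts the gene's own strand it had 2921 counts. There, Rpl28 went from 18.6, 24.5 and 21.8 CPM in KO livers at 0 h to 19.8, 12.5 and 14.0 CPM at 12 h (adjusted p = 0.0511). It was singled out after its values were seen. Among members, the gene-strand column held 1.45 times the counts for Rpl37 and 1.38 times for Rps25.

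Across the 8 groups the members varied little. The highest group mean of a member was 1.25 times its lowest at the median (quartiles 1.20 and 1.32), and 73 of 78, or 93.6%, stayed under 1.5-fold. Over all genes tested the median ratio was 1.75 and 32.4% stayed under 1.5-fold. The members' median mean level of 34.7 CPM was above the 7.35 CPM of all genes, and low genes spread more by counting alone. The fitted spread between mice had a median coefficient of variation of 10.8% for members and 12.8% for all genes. The steadiest was Rplp0, the base of the ribosomal stalk and a widely used reference gene, at 45.4 to 60.4 CPM and a group mean ratio of 1.08. Rps4x (1.08) and Rps27a (1.11), which is made as a fusion to ubiquitin, came next. At the other end were Rps25 (1.90), Rpl37 (1.88), Rpl22l1 (1.75), Rpl7l1 (1.64) and Rpl27a (1.51). In the gene-strand column the lowest and highest group means were 27.5 and 41.9 CPM for Rps25, a smaller ratio, and 12.5 and 22.2 CPM for Rpl37.

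**Figure D2:**
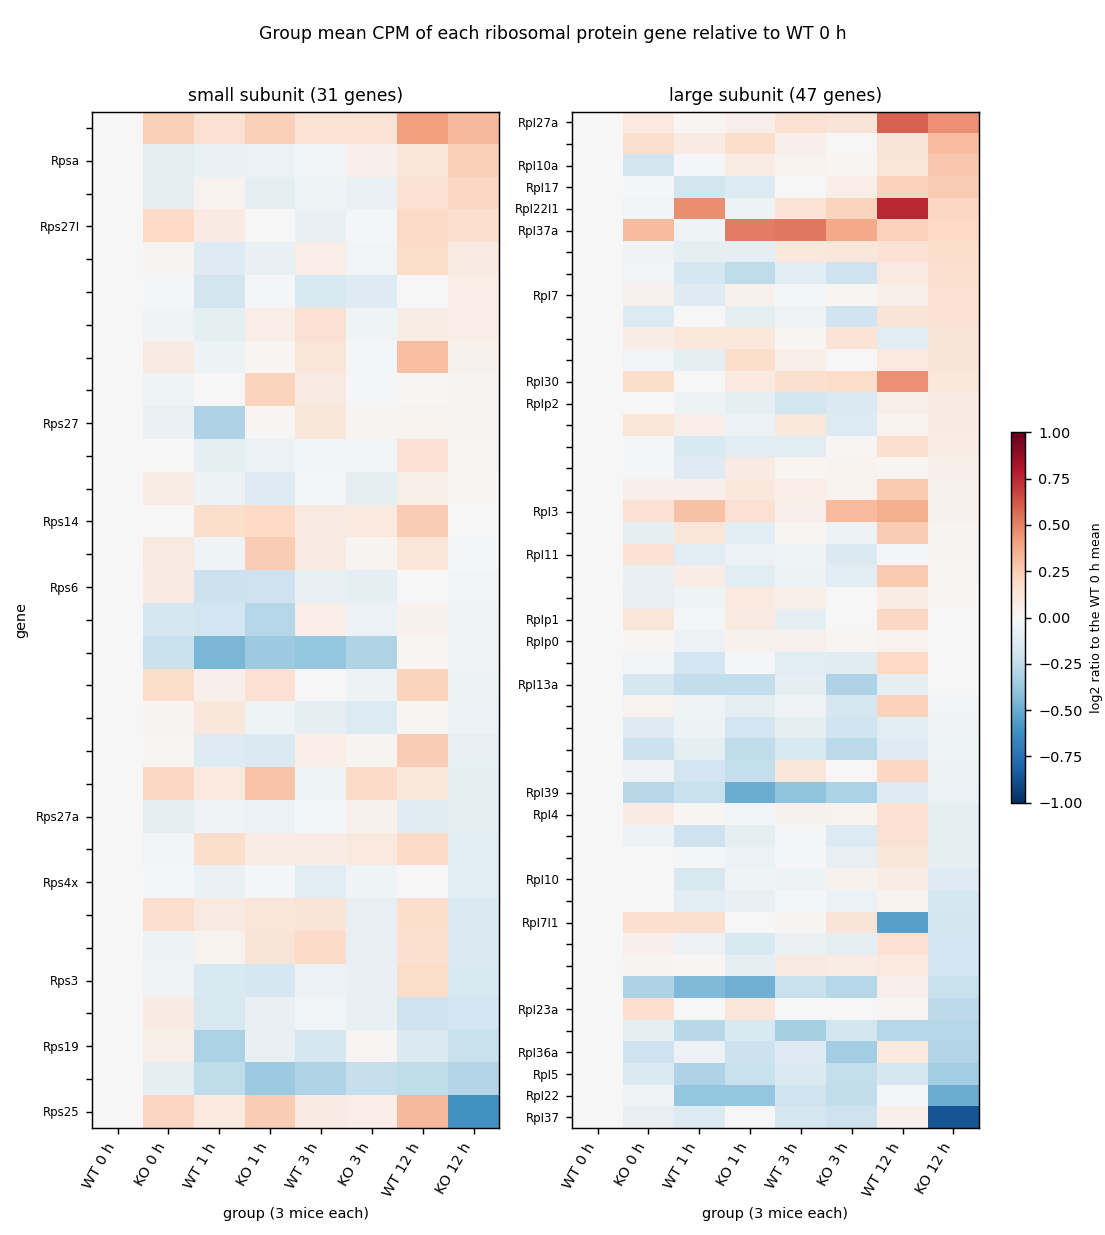
Group mean CPM of each of the 78 genes (rows, by subunit, ordered by the KO 12 h ratio, with names only for genes of the naming rule or called) in the 8 groups (columns), as the log2 ratio to the WT 0 h mean; red is higher, blue is lower. Most cells are pale, and the strongest colours are Rpl22l1 in WT at 12 h and Rpl37 and Rps25 in KO at 12 h.

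The responses to acetaminophen were tested against 0 h within each genotype, and a gene is called where its adjusted p is under 0.05. At 1 h in WT, 1 of 78 members was called, lower, beside 8.09% of all genes. At 1 h in KO none was called by edgeR, beside 7.58% of all genes, with none by DESeq2. At an unadjusted p under 0.05 there were 5 (6.41%), beside 21.3% of all genes. At 3 h in WT 1 member was called, higher, beside 14.1% of all genes. At 3 h in KO none was called by edgeR, beside 9.95%, with none by DESeq2 and none at an unadjusted p under 0.05, beside 22.9% of all genes. At 12 h in WT 4 members were called, 3 higher and 1 lower, beside 25.6% of all genes. In KO at 12 h 6 were called, 2 higher and 4 lower, beside 28.8% of all genes. Under TMM, the members' share called was below that of all genes in each of the 6 responses. Scaling by library size alone gave 0 higher and 18 lower in WT at 12 h and 0 higher and 23 lower in KO. The medians there were −0.37 and −0.26 for all genes and −0.26 and −0.28 for the members. The share of all genes called under that scaling is not given here. The livers of the compared times did not overlap for 7, 5 and 13 members at 1, 3 and 12 h in WT, beside 24.7%, 28.6% and 39.9% of all genes, and for 11, 5 and 17 in KO, beside 26%, 30.8% and 41.1%. Over the 6 responses 11 members were called at least once and 67 never, and no such count over all genes is given here.

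The median log2 fold change of the members was −0.07, −0.02 and 0.10 at 1, 3 and 12 h in WT and −0.04, −0.04 and −0.02 in KO. That of all genes lay between −0.02 and 0.00 in each. At 12 h, 61 of the 78 members lay above 0 in WT and 34 in KO. The 2 subunits had medians of 0.11 (small) and 0.09 (large) in WT at 12 h and −0.06 and −0.01 in KO. For 64 of the 78 members in WT and 63 in KO at 12 h the 95% interval of the change lay within 1.5-fold in either direction, against 22.6% and 20.9% of all genes. At 1 h these counts were 70 and 76 members, and at 3 h 70 and 73. The 3 responses of a genotype share its 0 h mice.

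**Figure D3:**
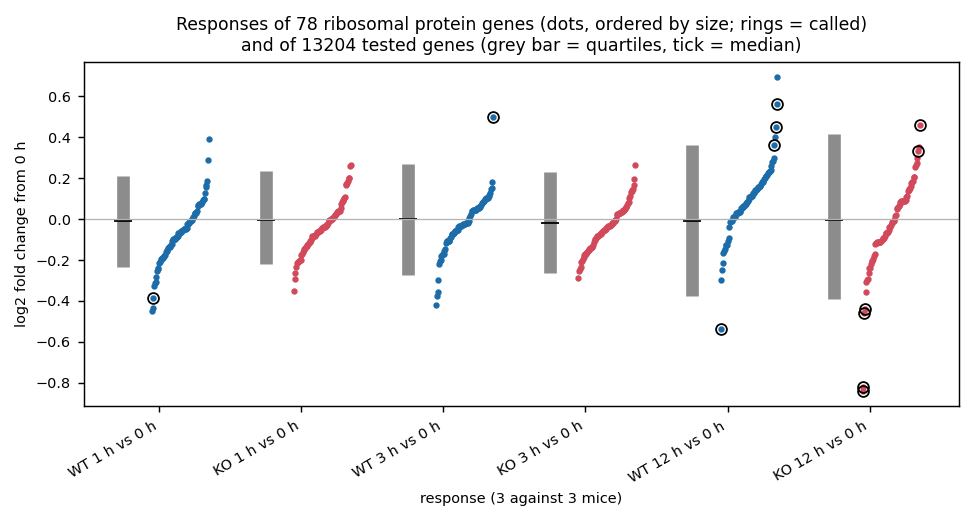
Log2 fold change from 0 h (y axis) of the 78 ribosomal protein genes (dots, ordered by size within each response; WT blue, KO red; rings mark called genes) and quartiles of all 13204 tested genes (grey bars, median as a tick). At 12 h the middle of the members' dots lies well inside the grey bars, and 10 of the 12 rings are at 12 h.

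Among the members called higher in WT at 12 h, Rpl27a, a large subunit protein whose tract is shown above, was at 23.2, 13.5 and 20.8 CPM at 0 h. It was at 31.9, 29.2 and 25.4 CPM at 12 h, so that all 12 h livers lay above all 0 h livers (log2 fold change 0.56 ± 0.16 SE, adjusted p = 0.0106). The lowest 0 h value was replicate 2, and without it the change was 0.39 (adjusted p = 0.0667). Without WT 12 h replicate 1 it was 0.49 (adjusted p = 0.0589). In KO livers Rpl27a went from 20.3, 19.8 and 21.4 CPM to 22.6, 25.8 and 30.4 CPM, again with no overlap, and was not called (0.35, adjusted p = 0.112). Rpl30, another large subunit protein, went in WT from 28.2, 24.2 and 30.9 CPM to 37.3, 35.6 and 41.5 CPM (0.45 ± 0.13 SE, adjusted p = 0.0100). Without WT 12 h replicate 3 it was 0.38 (adjusted p = 0.0676). Its 12 h values in KO, 27.8, 33.2 and 28.6 CPM, lay within or next to the KO 0 h range of 29.2 to 34.6 CPM. Rpl3, which lies by the centre where peptide bonds form, went in WT from 51.4, 38.9 and 46.2 CPM to 56.3, 59.5 and 60.2 CPM (0.36 ± 0.14 SE, adjusted p = 0.0478). Leaving out any of WT 0 h replicates 2 and 3 or WT 12 h replicates 1 to 3 ended that call, at adjusted p from 0.0727 to 0.182.

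Rpl7l1, a relative of Rpl7 that acts in the assembly of the large subunit, was the member called lower in WT at 12 h. It went from 20.2, 22.9 and 16.1 CPM at 0 h to 13.9, 15.0 and 11.7 CPM (−0.54 ± 0.18 SE, adjusted p = 0.0235), and no 12 h liver reached a 0 h liver. Leaving out WT 0 h replicate 1 or 2 or WT 12 h replicate 1 or 3 ended the call, at adjusted p from 0.0525 to 0.128. In KO it went from 27.2, 18.7 and 20.9 to 14.4, 18.2 and 19.6 CPM, with overlapping livers (−0.36, adjusted p = 0.113). Rpl7 itself, the structural protein, stayed at 95.6 to 131 CPM over all 24 livers and was called nowhere.

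Rpl22 and Rpl22l1 are paralogs that take the same place in the large subunit, and Rpl22 protein is known to hold down Rpl22l1 mRNA. Rpl22 stood at 49.2, 59.7 and 45.3 CPM in WT and 55.1, 50.4 and 44.8 CPM in KO at 0 h. At 1 h it was lower in every liver of both genotypes, at 38.0, 37.9 and 41.8 CPM in WT and 43.6, 37.4 and 36.8 CPM in KO. The change was −0.38 ± 0.12 SE in WT (adjusted p = 0.0498) and −0.35 ± 0.12 SE in KO (adjusted p = 0.0740). The WT call at 1 h was lost with the replicate number as a block (adjusted p = 0.0554) and on leaving out any of the 3 WT 1 h livers or WT 0 h replicate 1 or 2, at adjusted p from 0.0882 to 0.253. At 12 h Rpl22 was back at 49.3, 52.8 and 50.3 CPM in WT (−0.01, adjusted p = 0.966). In KO it was at 43.4, 33.4 and 32.5 CPM, all below the 0 h livers (−0.46 ± 0.13 SE, adjusted p = 0.0078), and without KO 12 h replicate 2 the change was −0.39 (adjusted p = 0.0541).

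Rpl22l1 was at 7.86, 3.15 and 7.46 CPM in WT livers at 0 h and at 12.7, 6.39 and 12.2 CPM at 12 h. The replicate 2 livers were low at both times and the groups overlapped (0.69 ± 0.26 SE, adjusted p = 0.0514), so it was not called. In KO livers Rpl22l1 went from 5.38, 7.01 and 5.71 CPM to 5.57, 9.09 and 6.64 CPM (0.25, adjusted p = 0.539). Of the other paralogs in the files, Rps27 and Rps27l, of which the latter is a p53 target, stood at 27.1 to 50.4 and 30.4 to 48.4 CPM and were called in no comparison. Rpl36a (9.59 to 19.1 CPM) was called nowhere either. Rpl3l and Rpl39l, known from muscle and testis, were at 0.126 and 0.0301 CPM on average, and Rpl10l had no count.

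Rpl37a, a zinc-binding large subunit protein, was the member called at 3 h in WT. It went from 10.3, 7.36 and 12.5 CPM at 0 h to 14.2, 14.0 and 15.3 CPM (0.50 ± 0.17 SE, adjusted p = 0.0475), with all 3 h livers above all 0 h livers. In KO it was already at 12.5, 13.1 and 12.0 CPM at 0 h and at 12.5, 12.9 and 13.8 CPM at 3 h (0.06, adjusted p = 0.882). The call ended on leaving out any of the 3 h livers or WT 0 h replicate 1 or 2, at adjusted p from 0.0742 to 0.219.

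The members called lower in KO at 12 h, besides Rpl22, were Rpl23a, Rps25 and Rpl37. Rps25, a small subunit protein needed for initiation at some internal ribosome entry sites, was at 26.6, 25.2 and 32.9 CPM in KO at 0 h. At 12 h it was at 24.6, 12.5 and 10.8 CPM, so that replicates 2 and 3 lay far below every 0 h KO liver and replicate 1 just below (−0.82 ± 0.23 SE, adjusted p = 0.0100). WT 0 h replicate 2 was also low for Rps25, at 14.7 CPM. The change in KO was −0.65 without KO 12 h replicate 2 (adjusted p = 0.0763), −0.63 without replicate 3 (adjusted p = 0.0594) and −0.68 without KO 0 h replicate 3 (adjusted p = 0.0547). In the gene-strand column Rps25 changed by −0.49 ± 0.20 SE (adjusted p = 0.0649).

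Rpl37, a zinc-binding large subunit protein that can also bind MDM2, was at 11.6, 14.6 and 15.3 CPM in KO at 0 h and at 6.74, 5.16 and 12.2 CPM at 12 h. The third 12 h liver lay within the 0 h range, and the change was −0.84 ± 0.24 SE (adjusted p = 0.0083). It is named although its livers overlapped, after its values were seen. Without KO 12 h replicate 2 the change was −0.57 (adjusted p = 0.106), and in the gene-strand column it was −0.69 ± 0.22 SE (adjusted p = 0.0215). Rpl23a, at the exit of the peptide tunnel, went in KO from 37.8, 32.5 and 39.7 to 27.6, 25.1 and 29 CPM with no overlap (−0.44 ± 0.14 SE, adjusted p = 0.0148). Without KO 0 h replicate 3 or KO 12 h replicate 2 its adjusted p was 0.0753 and 0.0775. In WT at 12 h Rps25 (27.2 to 32.5 CPM), Rpl37 (13.7 to 16.1 CPM) and Rpl23a (32.9 to 33.3 CPM) were not called.

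Rpl10a, a protein of the mobile stalk at the exit site, and Rpsa, a small subunit protein also known as a laminin receptor precursor, were called higher in KO at 12 h. Rpl10a went from 15.5, 15.2 and 17.4 to 19.9, 26.3 and 19.6 CPM (0.46 ± 0.15 SE, adjusted p = 0.0235). Its highest liver was KO 12 h replicate 2, and without it the change was 0.30 (adjusted p = 0.230). Leaving out KO 0 h replicate 1 or 2 also ended the call, at adjusted p of 0.0705 and 0.0679. Rpsa went from 65.5, 64.2 and 71.2 to 82.9, 89.2 and 81.0 CPM, with no overlap (0.33 ± 0.12 SE, adjusted p = 0.0371). Without KO 0 h replicate 1 or 2 or any of the KO 12 h livers the Rpsa call was lost, at adjusted p from 0.0503 to 0.135. KO 12 h replicate 2 carried most weight in this group: without that library none of the 78 members was called in KO at 12 h by edgeR. Besides left-out libraries, scaling by library size alone ended the calls of Rpl27a (adjusted p = 0.359), Rpl3 (0.984), Rpl30 (0.652), Rpl37a (0.167), Rpl10a (0.355), Rpsa (0.683) and Rpl22 at 1 h (0.0764), all by edgeR. Without a low-count filter those of Rpl3, Rpl30, Rpl37a, Rpl10a, Rpsa and Rpl22 at 1 h ended, and DESeq2 did not call Rpl3, Rpl37a or Rpl22 at 1 h.

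**Figure D4:**
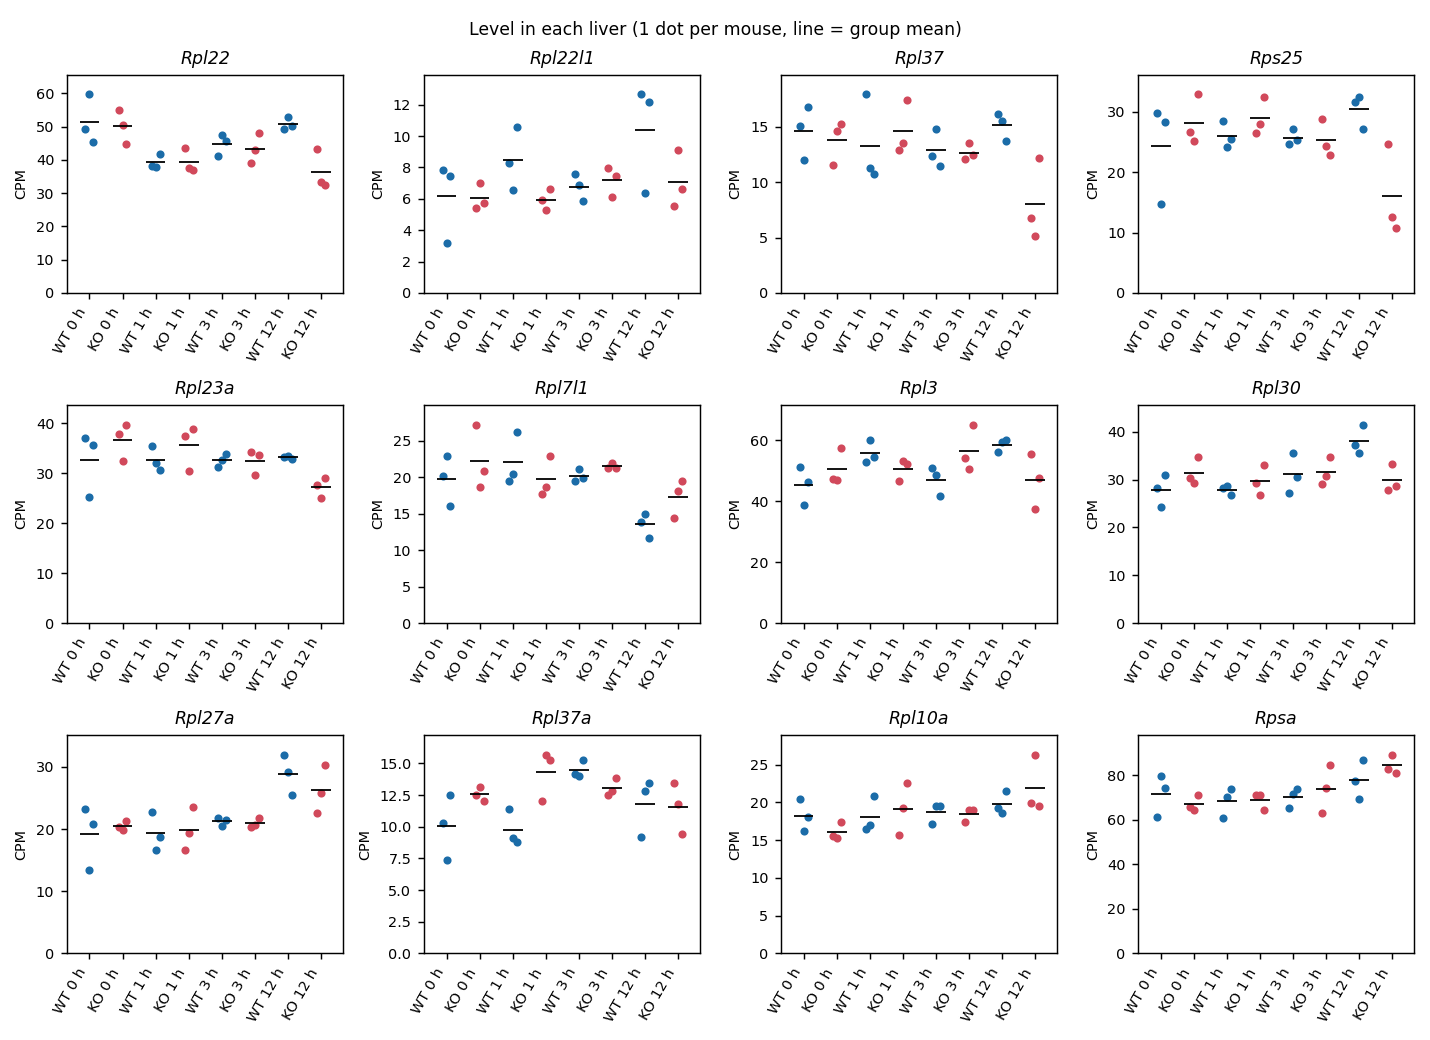
Level in CPM (y axis, from 0) of 12 members in every liver by group (x axis); dots are mice, lines are group means, WT blue and KO red. Rps25 and Rpl37 show low KO livers at 12 h. Rpl22 is lower at 1 h in both genotypes, called in WT alone and kept there in 1 of 15 refits. For Rpl27a the 12 h livers lie above the 0 h livers in both genotypes, of which WT is called under TMM but not with library size alone.

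Besides Rpsa, Rpl37 and Rpl3, described above, further members are known for a role outside the ribosome or a special place in it. The stalk proteins Rplp1 (26.2 to 37.3 CPM) and Rplp2 (55.3 to 89.8 CPM), which recruit translation factors, were called in no comparison. Rpl5 (46.1 to 68.0 CPM) and Rpl11 (23.5 to 42.0 CPM), the MDM2-binding pair, were not called either. Rpl5 was at 61.4, 58.0 and 68.0 CPM in WT at 0 h and at 54.4, 50.5 and 46.6 CPM at 1 h, without overlap (−0.31 ± 0.11 SE, adjusted p = 0.0713). Rps6, the substrate of S6 kinase, ranged from 32.4 to 50.7 CPM, Rps3, which binds mRNA at its entry, from 54.6 to 86.4 CPM, and Rpl13a, known from interferon-driven translational silencing, from 70.5 to 122 CPM. Rps14 (7.73 to 14.8 CPM) and Rps19 (16.0 to 29.9 CPM), whose shortage underlies anaemias in people, were likewise never called. The members with the most counts, Rpl4 and Rpl17, had means of 201 and 159 CPM. Rpl17 went in KO from 153, 155 and 155 to 176, 174 and 206 CPM at 12 h, without overlap, and was not called (0.26 ± 0.12 SE, adjusted p = 0.0911).

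As a share of the members' own sum, which does not depend on library scaling, 6 members moved past 1.25-fold by 12 h in WT and 8 in KO. In WT these were Rpl22l1 (1.60 times), Rpl27a (1.43 times) and Rpl30 (1.29 times) upward, and the 3 that moved downward included Rpl7l1 (0.642) and Rpl18 (0.771). In KO they were Rpl10a (1.37 times), Rpl27a (1.28 times) and Rpsa (1.26 times) upward and Rps25 (0.570), Rpl37 (0.579), Rpl22 (0.727), Rpl23a (0.742) and Rpl7l1 (0.779) downward. These ratios carry no test, and neither Rpl27a nor Rpl7l1 was called in KO.

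KO and WT livers were compared at each time. By edgeR no member was called at 0 h (all genes 0.0151%), 1 h (0.492%), 3 h (0.977%) or 12 h (0.053%), and DESeq2 called none either. At an unadjusted p under 0.05 there were 0, 2, 0 and 8 members. The share of all genes at that level was 8.12%, 9.76%, 10.4% and 10.3%. The 3 and 3 livers did not overlap for 1, 6, 5 and 17 members, against 14.4%, 14.9%, 15.5% and 14.5% of all genes. At 12 h the 17 members are 21.8% of the 78. The members' median log2 fold change, KO over WT, was −0.01, 0.04, −0.02 and −0.10, and 25 of the 78 were above 0 at 12 h. The largest differences at 12 h were Rpl37 (−0.96 ± 0.25 SE, adjusted p = 0.141), Rps25 (−0.92 ± 0.24 SE, adjusted p = 0.149) and Rpl22 (−0.48 ± 0.13 SE, adjusted p = 0.149). In the gene-strand column the difference was −0.87 ± 0.24 SE for Rpl37 (adjusted p = 0.183) and −0.60 ± 0.20 SE for Rps25 (adjusted p = 0.288). Leaving out KO 12 h replicate 1 or 3 gave 1 called member, lower.

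The difference of the responses was tested directly as the KO response minus the WT response. No member was called by edgeR at 1 h (all genes 0.454%), 3 h (0.151%) or 12 h (0.0227%), nor by DESeq2, with 0, 0 and 7 at an unadjusted p under 0.05, beside 10.9%, 8.67% and 10.2% of all genes. The 7 at 12 h are 8.97% of the members, below the share of all genes. They were Rps25 (−1.12 ± 0.32 SE, adjusted p = 0.209), Rpl37, Rpl30, Rpl3, Rpl22, Rpl23a and Rpl4, each with a negative value, and the median of the 78 was −0.12. For 36 of the 78 the 95% interval lay within 1.5-fold, and for the rest a difference of that size in the 12 h responses stayed within the interval. Without KO 12 h replicate 1 a single member was called, lower. Averaged over the 4 times, KO over WT gave 0 called members by edgeR beside 0% of all genes, 0 by DESeq2 and 3 (3.85%) at an unadjusted p under 0.05, beside 7.04% of all genes. For all 78 members the 95% interval of this average lay within 1.5-fold, against 77.5% of all genes. Rpl22l1 (−0.26), Rpl36a (−0.25) and Rpl37 (−0.24) were lowest and Rpl37a (0.17) highest. At the single times the interval of KO over WT lay within 1.5-fold for fewer members. These were 71, 73, 74 and 55 of the 78 at 0, 1, 3 and 12 h, beside 42.3%, 40.9%, 38.7% and 29.6% of all genes.

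**Figure D5:**
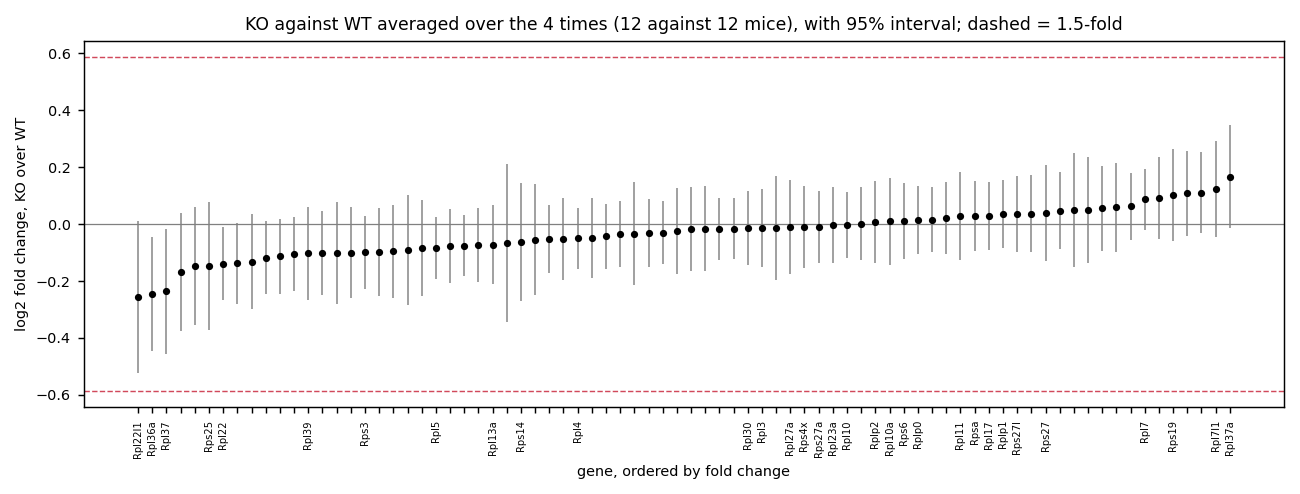
Log2 fold change of KO over WT averaged over the 4 times for each of the 78 genes (x axis, ordered by size, some named), with 95% intervals as vertical lines and 1.5-fold as dashed lines. All intervals of this average stay between the dashed lines, while at 12 h alone those of 55 of the 78 genes did.

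Other mRNAs with 5′ TOP, among them elongation factors, Fau, which encodes a ribosomal protein under another name, and host genes of small nucleolar RNAs, were read beside the members. Of 30 tested, 2 were called higher in WT at 12 h and 4 higher and 4 lower in KO. That is 6.67% and 26.7%, beside 25.6% and 28.8% of all genes. Snhg5, a small nucleolar RNA host gene, was higher in both (1.10 and 1.84), and Eif4b, a cofactor of the initiation helicase, was lower in KO (−0.75). Of 25 translation initiation factors, 6 were called higher in WT at 12 h and 11 in KO, none lower. The share of 24% in WT was below the 25.6% of all genes, and that of 44% in KO was above 28.8%. Examples are Eif4a1, the helicase (0.79 in WT), Eif6, which keeps free large subunits apart (0.84 in WT), and Eif5 (0.68 in KO). Of 27 genes of mTORC1 signalling, 4 higher and 2 lower were called in WT at 12 h and 5 and 2 in KO. These shares of 22.2% and 25.9% were below those of all genes. Among the called genes were the cap-binding protein Eif4e (1.25 and 0.98) and its inhibitor Eif4ebp1 (0.81 and 1.21), both higher, and the mTOR inhibitor Deptor, lower (−0.88 and −0.83).

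Of 7 genes of nucleolar stress and p53 control, 4 were called higher in WT at 12 h and 3 in KO, or 57.1% and 42.9%. Mdm2, the ligase that RPL5 and RPL11 bind, changed by 2.77 and 2.37, and Cdkn1a, a cell-cycle inhibitor and p53 target, by 3.86 and 2.66. Of 77 mitochondrial ribosomal protein genes, 3 were called lower in WT at 12 h and 7 in KO, with none higher (3.9% and 9.09%), and their medians were −0.10 and −0.13. Mrpl50 fell in both (−0.46 and −0.84). Of 34 short nuclear mRNAs of the respiratory chain 1 was called higher in WT at 12 h (2.94%) and none in KO. Of 13 mRNAs of the mitochondrial genome 3 were higher and 1 lower in WT and 4 higher in KO (30.8% in each), led by ND6 (0.76 and 0.99). At 1 and 3 h each of these lists had at most 4 called genes in either genotype.

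Some cell type markers differed between the groups compared. The 8 hepatocyte markers summed to 32605 to 36920 CPM in WT at 0 h. They summed to 45862 to 51943 CPM at 3 h and 42065 to 47180 CPM at 12 h, with 3 called higher and 1 lower at each. In KO their sums overlapped between 0 h (31987 to 39593 CPM) and 12 h (39134 to 43847 CPM), with 1 called higher and 1 lower at 12 h. The 6 cholangiocyte markers summed to 109.8 to 222 CPM in WT and 34.1 to 126 CPM in KO at 12 h, against 19.1 to 25.2 CPM at 0 h in both. Most of it was Sox9, up to 204 CPM, while Krt19, Krt7, Epcam and Cftr were at 0 in some libraries and at most 6.76 CPM. Sox9 was called higher at 12 h in both genotypes. The 11 Kupffer cell markers summed to 84.8 to 158 CPM in WT at 0 h and to 62.9 to 70.6 CPM at 1 h, where Rpl22 was called, and 6 of the 11 were called lower there. At 12 h they summed to 108 to 130 CPM in WT, within the 0 h range, with 1 called higher and 1 lower. In KO they went from 67.3 to 89.4 CPM at 0 h to 86.0 to 125 CPM at 12 h, with 3 called higher. The sums of the 8 stellate cell markers overlapped between 0 and 12 h in both genotypes, at 149 to 198 and 186 to 242 CPM in WT and 130 to 179 and 173 to 212 CPM in KO, with 2 and 1 called higher. The 5 erythroid markers summed to 80.1, 252 and 331 CPM in the WT livers at 3 h, where Rpl37a was called, against 63.7 to 146 CPM at 0 h and 42.2 to 59.3 CPM in KO at 3 h. There, 1 of the 5 was called higher against WT 0 h and 3 lower in KO against WT. The part of these markers in the results on the ribosomal protein genes was not tested.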

How the data were processed

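Livers of 24 mice in 8 groups were sequenced in bulk as polyA RNA. The deposited values are whole-number counts of reads on each gene, as the authors obtained them: STAR and mm39 are named in the submitters' processing notes. Which STAR version and which annotation served is not given in the sources used here. Counts without regard to strand were used, and lines that name no gene were left out of library sizes. In R 4.3.3, edgeR 4.0.16 kept 13204 genes by filterByExpr, scaled libraries by TMM and fitted all 24 libraries in a single quasi-likelihood model, each group having its own mean. Its F-tests were adjusted by Benjamini-Hochberg over all tested genes at 0.05. SE is the absolute log2 fold change over the square root of F. CPM use the TMM-scaled sizes. Replicates are individual mice per the labels, and chi-square per degree of freedom between libraries of a group was 2.23 to 21.6, above counting noise. Coding lengths came from GENCODE M21 and promoters from RefSeq. Scripts were tested on simulated data. In a simulated WT 12 h vs 0 h comparison, 20.6% of 68 changes of log2 0.585, near 1.5-fold, were called. Of 63 changes of log2 1 it called 85.7%, and of 69 of log2 2 it called 100%. Most changes near 1.5-fold were thus missed there. That run had 143 calls among 12817 genes, while the real WT 12 h vs 0 h comparison had 3381 calls. In the real comparison the median SE was 0.144 for members and 0.256 for all genes. Rpl3 was called there at a log2 fold change of 0.36, below the simulated 0.585. The 20.6% therefore does not give the share of such changes missed among the members. A gene not called is still not shown to be unchanged.

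The members and lists were chosen with earlier results of these data known. Named are, per comparison, up to 5 members in each direction called without overlap of livers, paralog pairs, members by role, those with the highest and lowest mean, those nearest the minimum, and up to 3 called genes of each other list, of which only some are printed. Alternatives were RLE scaling, library size alone, 2 other filters, the gene-strand column, removal of mitochondrial ribosomal RNA and AY036118 (a locus that overlaps ribosomal RNA), a fit of only the groups compared, a replicate block, DESeq2 1.42.0 and leaving out libraries. Some members are not reported here by name.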

Additional observations from a re-analysis of the deposited data

How the results depend on the processing

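Of the 12 called changes of members, none turned direction in 181 refits, 117 refits kept the call and 64 lost it, and no change kept its call in all of them. The most stable were Rpl22 and Rpl37 in KO at 12 h, each kept in 14 of 15, lost without KO 12 h replicate 2. The least stable was Rpl22 in WT at 1 h, kept in 1 of 15. For WT 1 h vs 0 h the count of called members went from 1 to 0 with RLE scaling, library size alone, a filter of 1 CPM in 3 libraries, the gene-strand column, mitochondrial ribosomal RNA and AY036118 removed, or only the groups compared, and to 2 without a low-count filter. For WT 3 h it went from 1 to 3, all lower, with library size alone, and to 0 without a low-count filter, with only the groups compared, with WT 3 h replicates 2 and 3 left out together and in DESeq2. For WT 12 h it went from 4 to 18 with library size alone and to 2 without a filter, and for KO 12 h from 6 to 23 with library size alone. Without a filter, KO vs WT at 12 h gave 2 members and the difference of responses at 12 h gave 1. The cause was not tested, and the share of all genes called in the refits of this section is not given here.

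Leaving out each library in turn gave 0 to 1 called members for WT 1 h (0 without WT 1 h replicate 1 or 2), 0 to 2 for WT 3 h (0 without any of its 3 h livers, 2 lower without WT 0 h replicate 2), 1 to 4 for WT 12 h (1 without WT 0 h replicate 2 or WT 12 h replicate 3, 2 without WT 12 h replicate 1) and 0 to 6 for KO 12 h (0 without KO 12 h replicate 2). It gave 0 to 1 for KO vs WT at 12 h and for the difference of responses at 12 h, and 0 to 0 for the other comparisons. The log2 ratio of the summed level at 12 h to 0 h went from 0.09 to −0.26 in WT with library size alone; in KO, where it was 0.00015, it went to −0.26 with library size alone and to 0.0399 in the gene-strand column. The share of starts with a tract fell from 42.9% to 17.1% when the tract had to begin at the annotated start exactly.

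The labels number the mice 1 to 3 in every group. Same-numbered mice of 2 compared groups had correlations of −0.168 to 0.152 in their deviations (median 0.0226), with 3 of 30 pairs over 0.1. In 13 of the 30 cases the same-numbered mouse gave the highest correlation of the 3 mice of the other group. A library enters several of these cases. The numbers were not taken as pairs. With the replicate number as a block, 1 member was called in WT at 1 h, 0 at 3 h and 5 at 12 h, 6 in KO at 12 h, and 0 in every other comparison. The member called at 1 h was another than Rpl22, which had an adjusted p of 0.0554 under the block, and Rpl37a at 3 h had 0.0506. At 3 mice per group and 1.75 to 2.41 M usable counts at 12 h, members near 10 CPM rest on few counts.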
